A study of Mus musculus with 42 samples.

Results

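Input RNA of mouse embryonic stem (mES) cells without Trim71 was compared directly with input RNA of mES cells without Ago2. The comparison used 6 of the 42 libraries of the series, 3 labelled Trim71KO and 3 labelled Ago2KO, which were selected by their labels alone. All 6 came from experiment 2 and held total RNA of the cell lysate, sequenced with a stranded kit without bead capture. The cells of both groups were of the 129S6/SvEvTac background and carried the GFP_5xT71BS reporter, a stably transfected FLAG-Cas9 and an HA-AVI tag on Tnrc6a. Reporter, Cas9 and tag were therefore shared, and the groups differed in their labelled genotype, Trim71-/- against Ago2-/-. The cells had been grown on gelatin in serum with the cytokine LIF, in triplicate dishes. The number of clones behind each genotype is not given in the labels, so the p-values below measure the spread between dishes, and an effect of the genotype cannot be told apart from an effect of the clone. The 3 input libraries of tagged cells with neither gene deleted are given beside the knockouts as a reference.

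TRIM71 is an RNA-binding protein of early embryonic and stem cells that represses the mRNAs it binds. AGO2 is an Argonaute protein, which carries a microRNA and finds mRNAs by pairing with the microRNA's seed. Proteins of the TNRC6 (GW182) family link Argonaute proteins to the enzymes that shorten poly(A) tails, and the series asks how both silencing routes use Tnrc6a. The direct comparison shows at which RNAs levels differed between the libraries labelled Trim71KO and those labelled Ago2KO.

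Of the 19866 genes counted, 19257 passed the filter on low counts. A gene was called where edgeR's quasi-likelihood test gave a Benjamini-Hochberg adjusted p under 0.05, and 6583 genes (34.2%) met this. Of these, 3318 (17.2% of the genes tested) were higher in Trim71KO and 3265 (17.0%) were higher in Ago2KO. Most differences were small, with a median size of 0.42 on the log2 scale among the calls. At least 2-fold differences were found for 904 genes (4.69%), of which 321 (1.67%) were higher in Trim71KO and 583 (3.03%) were higher in Ago2KO. The 3 libraries of each knockout did not overlap at 8361 genes (43.4%), 21.5% being higher in Trim71KO and 21.9% lower, and at 6211 of the called ones. Total counts of the 6 libraries lay between 16782458 and 20661884, and the median standard error (SE) of a log2 difference was 0.11. Every difference below is Trim71KO minus Ago2KO on the log2 scale unless another pair is named, so a positive value means a higher level in Trim71KO, and levels are CPM (counts scaled to a common library total).

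**Figure D1:**
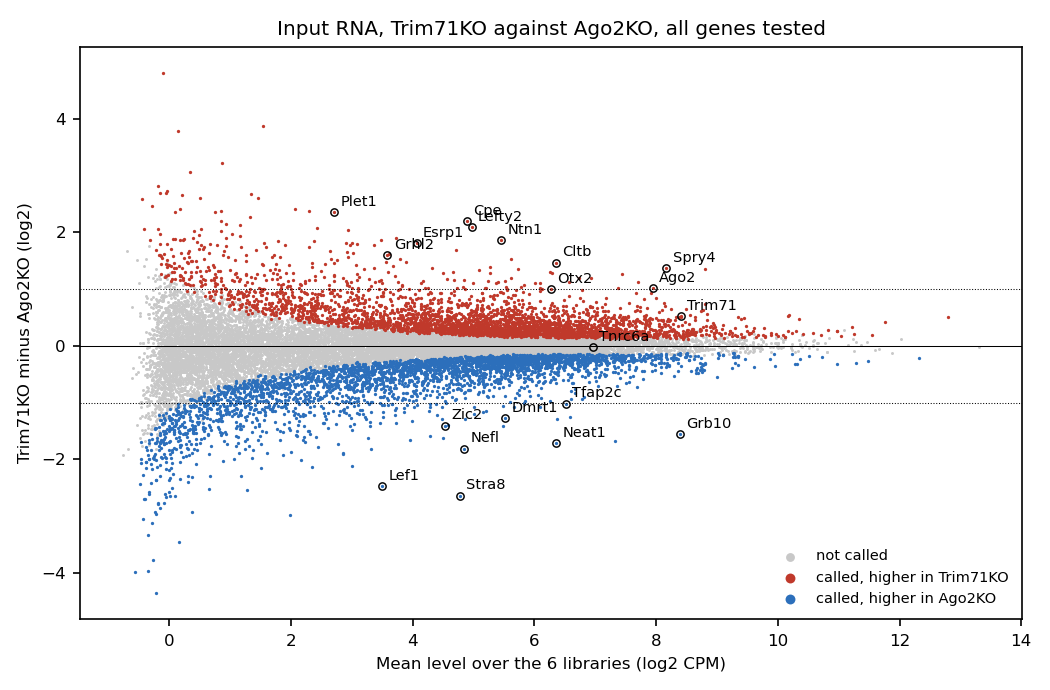
Each point is a gene, with its mean level over the 6 libraries (log2 CPM) on the x axis and Trim71KO minus Ago2KO (log2) on the y axis. Red and blue points are the 3318 and 3265 called genes and grey points were not called. Dotted lines mark 2-fold, and named genes such as Stra8 (-2.64), Lef1 (-2.47), Cpe (2.2) and Spry4 (1.37) lie well beyond them.

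Against the tagged cells, 6423 genes (33.4%) were called for Trim71KO, 17.2% of the genes tested being higher and 16.1% lower. For Ago2KO 2144 (11.1%) were called, 6.58% of the genes tested being higher and 4.55% lower. At least 2-fold differences from the tagged cells numbered 1045 (5.43%) for Trim71KO and 158 (0.820%) for Ago2KO. These comparisons use the same 3 tagged libraries, so they are set side by side without a test of one against the other. Markers of mES cells were abundant in both groups. Pou5f1, the transcription factor that defines pluripotent cells, stood at 1831, 1896 and 1672 CPM in the Trim71KO libraries and at 1575, 1568 and 1567 CPM in the Ago2KO libraries. For Nanog the libraries held 1042, 1064 and 997 CPM against 996, 1024 and 1020 CPM, and for Sox2 893, 918 and 910 CPM against 911, 873 and 878 CPM. Nanog (0.029, edgeR adjusted p 0.698) and Sox2 (0.031, edgeR adjusted p 0.643) were not called, while Pou5f1 was slightly higher in Trim71KO at 0.20 (SE 0.053, edgeR adjusted p 0.00534). Both groups thus held the defining transcripts of the labelled cell type.

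The targeted genes were examined next. Ago2 stood at 320, 324 and 406 CPM in Trim71KO, at 168, 174 and 179 CPM in Ago2KO and at 417, 346 and 375 CPM in tagged cells. All Ago2KO libraries were below all others, with a difference of 1.01 (SE 0.080, edgeR adjusted p 5.28e-10). Ago2 RNA was thus lower in the libraries labelled Ago2KO, in the direction of the label, but was not absent. Trim71 RNA went the other way from its label: it stood at 397, 418 and 406 CPM in the libraries labelled Trim71KO and at 286, 285 and 275 CPM in Ago2KO, beside 330, 286 and 295 CPM in tagged cells. The difference was 0.53 (SE 0.054, edgeR adjusted p 3.32e-08), with Trim71 also 0.42 higher in Trim71KO than in tagged cells (edgeR adjusted p 1.08e-06). Which part of the gene was deleted is not given in the labels, so the RNA level does not check the Trim71KO label, on which the directions below rest. Trim71KO stands for the libraries labelled so throughout. Tnrc6a, which carries the tag, was not called, at 123 ± 3.41 CPM (SD, n = 3) against 124 ± 3.28 CPM and a difference of -0.021 (SE 0.056, edgeR adjusted p 0.809), and was higher than in tagged cells in both knockouts (0.38 in Trim71KO and 0.40 in Ago2KO, edgeR adjusted p 1.32e-05 and 3.01e-05).

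Of 21 silencing factors, all tested, 5 were higher in Trim71KO, 5 were lower and 11 were not called, with a median of -0.071 beside -0.0036 over all genes tested. The 5 higher members include the targeted genes Trim71 and Ago2, beside Drosha, Lin28a and Dgcr8. The counts of this and every later list stand beside 17.2% of all genes tested called higher in Trim71KO and 17.0% called lower. The deposited RPKM values, which are per gene length, allow the Argonautes to be set against each other. Ago2 stood at 23.2 ± 3.23 RPKM in Trim71KO and 11.5 ± 0.355 RPKM in Ago2KO, and Ago1 stood at 13.9 ± 0.446 and 16 ± 0.144 RPKM (SD, n = 3 each). Ago3 lay near 1.05 ± 0.106 and 1.13 ± 0.149 RPKM, and Ago4 was lowest at 0.125 ± 0.00663 and 0.151 ± 0.0489 RPKM. Ago2 RNA made up between 59.0% and 63.2% of the summed Argonaute RPKM in the Trim71KO libraries, between 39.3% and 40.6% in Ago2KO and between 65.5% and 66.5% in tagged cells. In Ago2KO, Ago1 was thus the most abundant Argonaute mRNA by this measure, which it was not in Trim71KO. Ago1 was lower in Trim71KO by a difference of -0.20 (SE 0.059, edgeR adjusted p 0.00907), a call that was lost when all 24 libraries of experiment 2 were fitted (adjusted p 0.134). Drosha, the nuclease that releases microRNA hairpins, was higher in Trim71KO at 231, 255 and 247 CPM against 181, 185 and 178 CPM, a difference of 0.43 (SE 0.050, edgeR adjusted p 2.69e-07). Dicer1, which makes the mature duplex, was lower at -0.22 (SE 0.058, edgeR adjusted p 0.00492). Lin28a, an RNA-binding protein that blocks let-7 maturation, was higher at 0.26 (SE 0.053, edgeR adjusted p 3.93e-04). Dgcr8 was higher at 0.20 (edgeR adjusted p 0.0207), and Dis3l2 (-0.34, 0.0231), Tut4 (-0.20, 0.0197) and Cnot7 (-0.17, 0.0183) were lower. Each of these calls was lost in some alternative fit. Ago3 (-0.10, edgeR adjusted p 0.488), Tnrc6b (-0.076, 0.471), Tnrc6c (-0.12, 0.0744), Cnot1 (-0.071, 0.431) and Ddx6 (0.020, 0.829) were not called.

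Genes were also named by the size of their difference, 12 in each direction, among called genes with a mean log2 CPM of at least 2 and no overlap between the libraries. Those higher in Trim71KO are given first. Cpe, a carboxypeptidase that processes prohormones, stood at 58.8, 61.5 and 65.2 CPM in Trim71KO and at 14.4, 13.2 and 12.9 CPM in Ago2KO, a difference of 2.2 (SE 0.076, edgeR adjusted p 3.61e-16). Ntn1, which encodes the guidance cue netrin-1, stood at 85.8, 74.9 and 87.4 CPM against 25.9, 23.6 and 18.6 CPM, a difference of 1.87 (SE 0.10, edgeR adjusted p 2.81e-13). In tagged cells Cpe stood at 12.9, 12.5 and 14.3 CPM and Ntn1 at 32.6, 25.7 and 27 CPM, so the Trim71KO libraries were far above the tagged ones for both. Ago2KO minus tagged cells was not called for Cpe (0.027, edgeR adjusted p 0.901) and was called lower for Ntn1 (-0.33, 0.0377). Duox1, an oxidase that produces hydrogen peroxide, had the largest difference of the 12 at 2.4 (SE 0.18, edgeR adjusted p 2.69e-10), from 9.02, 7.41 and 8.0 CPM against 1.6, 1.69 and 1.3 CPM. Usp26, an X-linked testis deubiquitinase, followed at 2.37 (SE 0.18, edgeR adjusted p 2.29e-10). Plet1, a surface protein of trophoblast and other epithelia, stood at 13.8, 13.6 and 12.6 CPM against 2.79, 2.61 and 2.4 CPM, a difference of 2.36 (SE 0.14, edgeR adjusted p 2.72e-12). Here the tagged cells (4.64, 3.97 and 5.39 CPM) lay between the knockouts, and both departed from them, with differences from tagged cells of 1.51 in Trim71KO and -0.85 in Ago2KO. Rhox5, a homeobox gene of the X-linked Rhox cluster, had the same order with 25.2, 26.2 and 22.1 CPM in Trim71KO, 6.42, 7.11 and 6.05 CPM in Ago2KO and 11.3, 12 and 14.3 CPM in tagged cells. The others were Lefty2 (2.1), described below, Tm9sf5 (2.08), Ccdc141 (2.04), Islr2 (1.87), the growth factor gene Fgf10 (1.84) and the homeodomain gene Hopx (1.82). Of the 12, Plet1, Rhox5, Lefty2, Ntn1 and Fgf10 were also called in Ago2KO against tagged cells, and all 12 were called higher in Trim71KO against tagged cells.

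**Figure D2:**
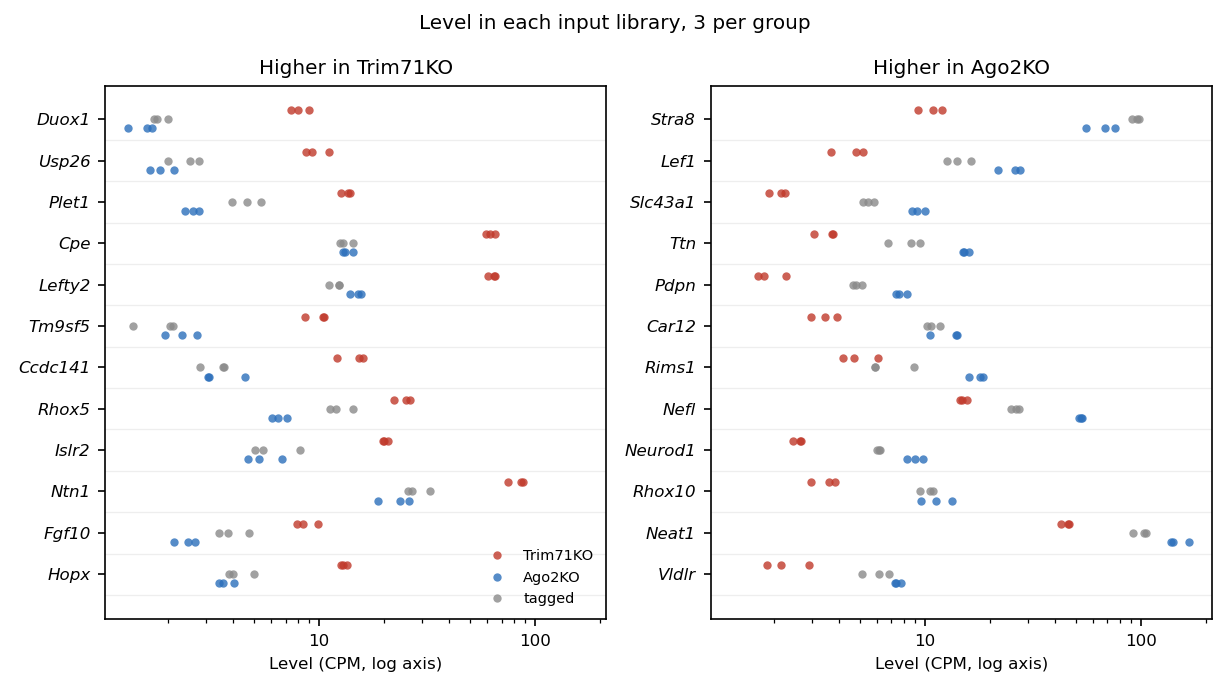
Level of the 24 genes named by size in each of the 3 input libraries of Trim71KO (red), Ago2KO (blue) and tagged cells (grey), in CPM on a log axis. The red and blue points do not overlap for any gene, as the rule required. Tagged cells stood near Ago2KO for Cpe and Duox1 and between both knockouts for Plet1, Lef1 and Nefl.

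Among the 12 genes higher in Ago2KO, Stra8, which is induced by retinoic acid and needed for entry into meiosis, had the largest difference. It stood at 10.9, 12 and 9.32 CPM in Trim71KO and at 55.6, 68.2 and 76.2 CPM in Ago2KO, with 91.5, 98.3 and 96.3 CPM in tagged cells. The Trim71KO libraries were far below both other groups, and the Ago2KO libraries were below the tagged ones, with a direct difference of -2.64 (SE 0.10, edgeR adjusted p 9.71e-16) and differences from tagged cells of -3.15 in Trim71KO and -0.51 in Ago2KO. Lef1, a transcription factor that acts with beta-catenin in Wnt signalling, stood at 5.2, 4.79 and 3.67 CPM against 21.8, 27.6 and 26.1 CPM, a difference of -2.47 (SE 0.13, edgeR adjusted p 3.68e-13). The tagged level of 12.7, 14.2 and 16.4 CPM lay between, so Lef1 was called lower in Trim71KO and higher in Ago2KO than in tagged cells (-1.66 and 0.81, edgeR adjusted p 8.95e-10 and 1.25e-05). The neurofilament gene Nefl showed the same order with 14.9, 14.6 and 15.6 CPM in Trim71KO, 27.4, 26.6 and 25.1 CPM in tagged cells and 51.8, 53.6 and 52.9 CPM in Ago2KO, and a direct difference of -1.81 (SE 0.070, edgeR adjusted p 1.43e-15). Neat1, the long non-coding RNA on which nuclear paraspeckles form, stood at 45.8, 46.7 and 42.9 CPM against 137, 140 and 167 CPM, a difference of -1.72 (SE 0.078, edgeR adjusted p 3.79e-14). Slc43a1 (-2.14), an amino acid transporter, Ttn (-2.13), the giant muscle protein titin, Pdpn (-2.01), a membrane mucin, Rims1 (-1.81), a synaptic protein, and Neurod1 (-1.79), a neuronal transcription factor, were each called on both sides of the tagged level as well. For Rims1 the Trim71KO libraries (4.19, 4.73 and 6.08 CPM) overlapped the tagged ones (8.91, 5.87 and 5.91 CPM), with an edgeR adjusted p of 0.0371. Car12 (-1.89), a carbonic anhydrase, Rhox10 (-1.73) and the lipoprotein receptor gene Vldlr (-1.7) were called lower in Trim71KO than in tagged cells, and the difference between Ago2KO and tagged cells was not called.

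Lists of mRNAs that earlier work linked to TRIM71 or to microRNAs were then counted. The microRNAs are shown because AGO2 finds its targets through their seeds: microRNAs of the miR-290 cluster and miR-302 share a seed (bases 2 to 8, in capitals), and let-7 has another. Sequences are mature RefSeq entries of GRCm38.p6.
mmu-miR-291a-3p: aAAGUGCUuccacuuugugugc
mmu-miR-294-3p: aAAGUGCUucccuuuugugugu
mmu-miR-295-3p: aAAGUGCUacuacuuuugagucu
mmu-miR-302b-3p: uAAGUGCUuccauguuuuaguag
mmu-let-7g-5p: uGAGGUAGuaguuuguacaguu
The first 3 lie on the plus strand at chr7:3218968-3218989, chr7:3220691-3220712 and chr7:3220815-3220837, miR-302b-3p at chr3:127545275-127545297 and let-7g-5p at chr9:106178846-106178867. Mature microRNAs were not measured in these libraries, and target sites were not searched here.

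Of 9 genes reported as TRIM71 targets 8 were tested, 5 were higher in Trim71KO and 3 were lower, with a median of 0.31. Plxnb2, a semaphorin receptor, stood at 159, 155 and 165 CPM in Trim71KO, 76.5, 68.1 and 64.2 CPM in Ago2KO and 69.4, 63.3 and 72.4 CPM in tagged cells, a direct difference of 1.2 (SE 0.068, edgeR adjusted p 1.54e-12). Inhbb, the beta-B subunit of activin and inhibin, stood at 366, 368 and 347 CPM against 237, 221 and 211 CPM, a difference of 0.69 (SE 0.056, edgeR adjusted p 6.22e-10). Mbnl1, a splicing regulator, was higher as well, at 0.56 (SE 0.10, edgeR adjusted p 1.16e-04). In these 3 genes all Trim71KO libraries were above all Ago2KO libraries, and Ago2KO minus tagged cells was not called. Rbl2 (0.33, SE 0.10, edgeR adjusted p 0.00900) and Rbl1 (0.28, SE 0.084, edgeR adjusted p 0.0109), relatives of the retinoblastoma protein that restrain the cell cycle, were higher by less. Rbl1 was not called without Trim71KO replicate 3 (adjusted p 0.102), and Rbl2 was not called in the fit of all 24 libraries (adjusted p 0.254). The members that were lower were Nab2 at -0.72 (SE 0.077, edgeR adjusted p 7.32e-08), a corepressor of Egr transcription factors, Egr1 itself and Cdkn1a. Egr1 varied widely between dishes, with 96.9, 42 and 31 CPM against 180, 142 and 93.6 CPM and overlapping groups, and its difference of -1.28 (SE 0.37, edgeR adjusted p 0.00916) was not called without Trim71KO replicate 2 (adjusted p 0.0563), with DESeq2 (0.109) or in the fit of all 24 libraries (0.0718). Cdkn1a, the cell cycle inhibitor p21, stood at 62.9, 59.6 and 68.2 CPM against 70.1, 74.5 and 83.5 CPM and 65.4, 72.6 and 69.9 CPM in tagged cells. Its difference of -0.26 (SE 0.069, edgeR adjusted p 0.00464) was not called without Ago2KO replicate 3 (adjusted p 0.0560) or in the fit of all 24 libraries (0.164). Against tagged cells Cdkn1a was not called for Trim71KO here (-0.12, edgeR adjusted p 0.176). In experiment 1, described below, Cdkn1a was higher in Trim71KO than in tagged cells (1.06, SE 0.086, edgeR adjusted p 3.24e-07), at means of 57.5 and 27.5 CPM. In the fit of all 24 libraries 5 members of this list were called instead of 8.

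Of 11 mRNAs that earlier work assigned to the miR-290 family 10 were tested, 2 were higher in Trim71KO, 4 were lower and 4 were not called, with a median of -0.22. Ei24, an autophagy and p53 response gene, stood at 152, 150 and 143 CPM in Trim71KO and 214, 194 and 188 CPM in Ago2KO, a difference of -0.42 (SE 0.059, edgeR adjusted p 4.93e-06). The tagged level was 150, 149 and 133 CPM, so Ei24 was not called in Trim71KO against tagged cells (0.043, edgeR adjusted p 0.617) and was called higher in Ago2KO (0.46, 6.83e-06). Akt1, a growth-promoting kinase, stood at 33.8, 35.7 and 30 CPM against 48.5, 47.6 and 47.4 CPM, a difference of -0.53 (SE 0.073, edgeR adjusted p 3.81e-06). Rhoc was lower at -0.24 (SE 0.077, edgeR adjusted p 0.0156), a call lost without Trim71KO replicate 3 (adjusted p 0.117) or without Ago2KO replicate 1 (0.0684), and Cdkn1a, which both lists hold, was the fourth. Fbxl5, a sensor of cellular iron, was higher at 0.26 (SE 0.068, edgeR adjusted p 0.00451), as was Rbl2, also in both lists. Among the members that were not called, Casp2 gave 0.022 (edgeR adjusted p 0.864), Tgfbr2 -0.33 (0.303) and Wee1 -0.0094 (0.927).

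Of 20 genes reported as let-7 targets 6 were higher, 4 were lower and 10 were not called. The median was 0.013 and turned negative, to -0.031, when libraries were scaled by their totals alone. Myc, a growth-promoting transcription factor, stood at 31.5, 29.9 and 25.4 CPM in Trim71KO, 17.1, 18.2 and 13.8 CPM in Ago2KO and 16.6, 12.1 and 14.3 CPM in tagged cells, a direct difference of 0.82 (SE 0.11, edgeR adjusted p 3.05e-06). The kinase gene Cdk6 (0.63, SE 0.063, edgeR adjusted p 2.54e-08) and the GTPase gene Nras (0.52, SE 0.050, edgeR adjusted p 1.32e-08) were higher too. E2f5, a partner of the pocket proteins, was lower at -0.61 (SE 0.071, edgeR adjusted p 2.60e-07). Ccnd1 (-0.22, SE 0.056, edgeR adjusted p 0.00295), Mycn (-0.17, SE 0.057, edgeR adjusted p 0.0231) and Dicer1, given above, were lower as well. The call of Mycn was lost in the fit of all 24 libraries (adjusted p 0.195) and without some single libraries. Trim71, itself a let-7 target, is a member of this list, as is Lin28a.

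Naive pluripotency genes mark the ground state of mES cells. Of 22 genes, all tested, 11 were higher in Trim71KO, 5 were lower and 6 were not called, with a median of 0.14. Klf5 stood at 527, 515 and 542 CPM in Trim71KO, 355, 356 and 329 CPM in Ago2KO and 360, 343 and 361 CPM in tagged cells, a direct difference of 0.61 (SE 0.054, edgeR adjusted p 4.51e-09). Klf4 stood at 805, 720 and 806 CPM against 569, 542 and 533 CPM, a difference of 0.50 (SE 0.053, edgeR adjusted p 5.79e-08). Klf2, the third Krüppel-like factor of naive cells, went the other way at 382, 443 and 375 CPM against 485, 508 and 498 CPM, a difference of -0.31 (SE 0.057, edgeR adjusted p 1.31e-04). The 3 genes differed in their relation to tagged cells: Klf5 departed from them in Trim71KO (0.57) and not in Ago2KO (-0.035, edgeR adjusted p 0.762), Klf4 was 0.26 in Trim71KO and -0.24 in Ago2KO, and Klf2 was higher than in tagged cells in both (0.47 in Trim71KO and 0.78 in Ago2KO). The nuclear receptor genes Nr0b1 (0.59, SE 0.060, edgeR adjusted p 4.14e-08) and Nr5a2 (0.46, SE 0.053, edgeR adjusted p 1.99e-07) were higher in Trim71KO, and so was Fgf4 (0.38, SE 0.054, edgeR adjusted p 4.63e-06), the growth factor through which mES cells drive their own ERK signal. Esrrb, an orphan nuclear receptor of naive cells, was lower at -0.24 (SE 0.045, edgeR adjusted p 2.32e-04), and Dppa5a at -0.31 (SE 0.057, edgeR adjusted p 1.26e-04) and Fbxo15 at -0.52 (SE 0.054, edgeR adjusted p 4.68e-08) were lower as well. Dppa3 was lower at -1.82 (SE 0.39, edgeR adjusted p 6.54e-04) but its levels were low, at 0.477, 0.399 and 0.219 CPM against 1.19, 1.06 and 1.67 CPM.

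Genes of the formative and primed states, which follow the naive state in the embryo, held large differences in both directions. Of 14 listed genes 13 were tested, with 6 higher in Trim71KO, 5 lower and 2 not called. Otx2, a homeobox gene of the epiblast, stood at 102, 102 and 122 CPM in Trim71KO, 54.1, 56 and 52.5 CPM in Ago2KO and 45.7, 46 and 47.5 CPM in tagged cells, a direct difference of 1.0 (SE 0.070, edgeR adjusted p 5.71e-11). Foxd3, a forkhead factor of the same stage, stood at 81.4, 83.5 and 67.8 CPM against 46.3, 41.4 and 33.6 CPM, a difference of 0.94 (SE 0.094, edgeR adjusted p 2.41e-08). In both genes the Trim71KO libraries were above all others. The zinc finger genes Zic2 and Zic5 were higher in Ago2KO instead. Zic2 stood at 17.1, 13.7 and 11 CPM against 38.1, 37.5 and 35.3 CPM with 16.9, 17.7 and 17.5 CPM in tagged cells, a difference of -1.41 (SE 0.11, edgeR adjusted p 2.29e-10), and Zic5 gave -1.3 (SE 0.074, edgeR adjusted p 1.63e-12). Lef1, a member of this list, is described above, and Dnmt3b and Dnmt3a are given with the DNA methylation genes.

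Nodal and activin are TGF-beta family ligands that act through Smad2 and Smad3, and the Lefty proteins are extracellular Nodal inhibitors that Nodal signalling itself induces. Of 18 genes of this group tested, 7 were higher in Trim71KO, 3 were lower and 8 were not called. Lefty2 stood at 60.7, 64.3 and 65.1 CPM in Trim71KO, 15.6, 13.9 and 15.1 CPM in Ago2KO and 12.4, 12.4 and 11.2 CPM in tagged cells, a direct difference of 2.1 (SE 0.076, edgeR adjusted p 5.08e-16). Lefty1 stood at 20, 19.7 and 14.8 CPM, 6.72, 8.23 and 7.2 CPM and 2.53, 2.93 and 2.83 CPM, a difference of 1.29 (SE 0.12, edgeR adjusted p 1.09e-08). For Lefty1 the 3 groups followed each other without overlap, with Ago2KO above tagged cells by 1.42 (edgeR adjusted p 8.16e-07) and Trim71KO above Ago2KO. Per gene length Lefty2 was the more abundant of the pair in Trim71KO, at 22.6 ± 0.847 RPKM against 9.63 ± 1.53 RPKM for Lefty1 (SD, n = 3). Nodal itself gave -0.10 (SE 0.087, edgeR adjusted p 0.397). Smad2, the signal transducer, was lower in Trim71KO at 56.3, 56 and 61.7 CPM against 79.4, 81.6 and 85.4 CPM, a difference of -0.50 (SE 0.062, edgeR adjusted p 6.21e-07). Inhbb, given above, belongs to this group as a ligand subunit. In the fit of all 24 libraries 6 members were called instead of 10.

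Immediate early genes and feedback genes of the FGF-ERK pathway numbered 22 tested, of which 9 were higher in Trim71KO, 6 were lower and 7 were not called, with a median of 0.16. The Sprouty genes Spry4, Spry2 and Spry1, whose products dampen receptor tyrosine kinase signalling, were higher. Spry4 stood at 475, 448 and 464 CPM in Trim71KO, 190, 190 and 157 CPM in Ago2KO and 270, 234 and 221 CPM in tagged cells, a direct difference of 1.37 (SE 0.077, edgeR adjusted p 1.54e-12). Spry2 gave 0.56 (SE 0.062, edgeR adjusted p 1.22e-07) and Spry1 gave 0.55 (SE 0.10, edgeR adjusted p 8.28e-05). Spry4 and Spry2 were above the tagged level in Trim71KO and below it in Ago2KO (Spry4 0.94 in Trim71KO and -0.43 in Ago2KO, Spry2 0.29 in Trim71KO and -0.27 in Ago2KO), whereas for Spry1 the difference from tagged cells was called in Ago2KO (-0.38, edgeR adjusted p 0.0121) and not in Trim71KO (0.17, 0.170). Ier5, an immediate early gene, stood at 9.92, 11.5 and 8.77 CPM against 3.45, 2.61 and 3.5 CPM, a difference of 1.67 (SE 0.16, edgeR adjusted p 2.11e-08). Dusp6, an ERK phosphatase (0.55, SE 0.072, edgeR adjusted p 1.43e-06), and Etv4, an ETS factor (0.54, SE 0.073, edgeR adjusted p 2.35e-06), were higher in Trim71KO, while Etv5 was lower (-0.25, SE 0.058, edgeR adjusted p 0.00144). Atf3 (-1.2, SE 0.26, edgeR adjusted p 8.70e-04), Ier3 (-0.70, SE 0.14, edgeR adjusted p 2.60e-04) and the Egr corepressor Nab1 (-0.81, SE 0.073, edgeR adjusted p 5.00e-09) were lower, beside Egr1 and Nab2. The list thus held calls in both directions.

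Genes of epithelial and mesenchymal character were counted as a group because mES colonies are epithelial. Of 20 genes, all tested, 9 were higher in Trim71KO, 6 were lower and 5 were not called, with a median of 0.13. Esrp1, a splicing regulator of epithelial cells, stood at 29.7, 29.5 and 31.5 CPM in Trim71KO, 8.44, 8.18 and 9.23 CPM in Ago2KO and 12.4, 11.2 and 11.8 CPM in tagged cells, a direct difference of 1.81 (SE 0.087, edgeR adjusted p 9.77e-14). Grhl2, a transcription factor of epithelia, stood at 21.4, 21.6 and 16.8 CPM against 7.02, 6.97 and 5.84 CPM, a difference of 1.59 (SE 0.12, edgeR adjusted p 3.54e-10). The tight junction genes Cldn7 (1.46, SE 0.20, edgeR adjusted p 4.46e-06) and Cldn6 (1.4, SE 0.10, edgeR adjusted p 1.76e-10) were higher in Trim71KO, at 19.7, 17.8 and 22.7 CPM against 6.72, 8.13 and 7.88 CPM for Cldn6. Both claudins lay below the tagged level in Ago2KO (-1.08 for Cldn7 and -1.07 for Cldn6). The adhesion genes Cdh1, which encodes E-cadherin, and Epcam were higher by less. Cdh1 stood at 260, 252 and 277 CPM against 194, 161 and 157 CPM, a difference of 0.62 (SE 0.073, edgeR adjusted p 2.87e-07), and Epcam gave 0.61 (SE 0.075, edgeR adjusted p 5.33e-07). Ocln, which encodes the tight junction protein occludin, went against these at -1.41 (SE 0.23, edgeR adjusted p 2.68e-05). Of the mesenchymal members, Cdh2, or N-cadherin, was lower in Trim71KO at -1.21 (SE 0.19, edgeR adjusted p 1.63e-05), the repressor gene Zeb1 at -0.90 (SE 0.080, edgeR adjusted p 3.66e-09), Twist1 at -1.02 (SE 0.26, edgeR adjusted p 0.00330) and Tgfb2 at -1.72 (SE 0.43, edgeR adjusted p 0.00281). Levels were low for Twist1 (means of 1.3 against 2.66 CPM) and Tgfb2 (0.478 against 1.59 CPM). Zeb2 was lower at -0.95 (SE 0.31, edgeR adjusted p 0.0198), a call lost without Trim71KO replicate 2 (adjusted p 0.116) or Ago2KO replicate 2 (0.136). Tgfb1 was called higher in Trim71KO, and Vim, Snai2, Fn1 and Tgfbr2 were not called. Zeb1 stood at 15, 16.1 and 16.5 CPM against 27.4, 30.7 and 30.7 CPM, below the tagged level in Trim71KO (-0.45) and above it in Ago2KO (0.45). Snai1, a repressor of E-cadherin, was higher in Trim71KO at 4.78, 3.48 and 5.37 CPM against 0.951, 1.5 and 1.56 CPM, a difference of 1.74 (SE 0.24, edgeR adjusted p 3.10e-06), opposite to Zeb1.

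Snail and Zeb repressors bind the E-box letters CACCTG, or CAGGTG on the other strand, so the promoter windows of the 20 members were searched for both. Of the 9 members higher in Trim71KO, 5 have a window in the RefSeq promoter table of GRCm38.p6 (300 bases, ending 50 bases after the gene's start), and 3 of these hold a match, namely Epcam, Cldn6 and Snai1. Cdh1, Esrp1, Grhl2 and Krt19 have no window there, so their promoters were not searched. Of the 6 lower members 4 have a window and 1 holds a match (Ocln), and of the 5 that were not called 3 have a window and 1 holds a match (Cldn4). Of all 27025 windows, 1 per gene, 20.0% hold one. The windows of Epcam (chr17:87635729-87636028, plus strand) and Cldn6 (chr17:23679115-23679414, plus strand), which were both higher in Trim71KO, are shown with the matches in capitals.
Epcam: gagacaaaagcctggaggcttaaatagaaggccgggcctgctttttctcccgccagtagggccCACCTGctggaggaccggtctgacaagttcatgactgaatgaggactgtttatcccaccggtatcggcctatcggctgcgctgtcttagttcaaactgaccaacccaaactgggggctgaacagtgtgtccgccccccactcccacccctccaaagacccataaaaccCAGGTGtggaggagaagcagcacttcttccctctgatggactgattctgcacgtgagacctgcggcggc
Cldn6: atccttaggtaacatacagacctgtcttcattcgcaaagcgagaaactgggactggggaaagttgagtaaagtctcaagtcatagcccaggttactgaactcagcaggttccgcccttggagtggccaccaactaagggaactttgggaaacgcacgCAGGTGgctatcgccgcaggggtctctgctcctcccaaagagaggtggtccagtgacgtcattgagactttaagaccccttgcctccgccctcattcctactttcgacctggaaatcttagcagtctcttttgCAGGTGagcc
Each window holds 2 matches. A match describes these letters only, and binding was not measured. The windows of Cldn7 and Tgfb1 hold none.

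**Figure D3:**
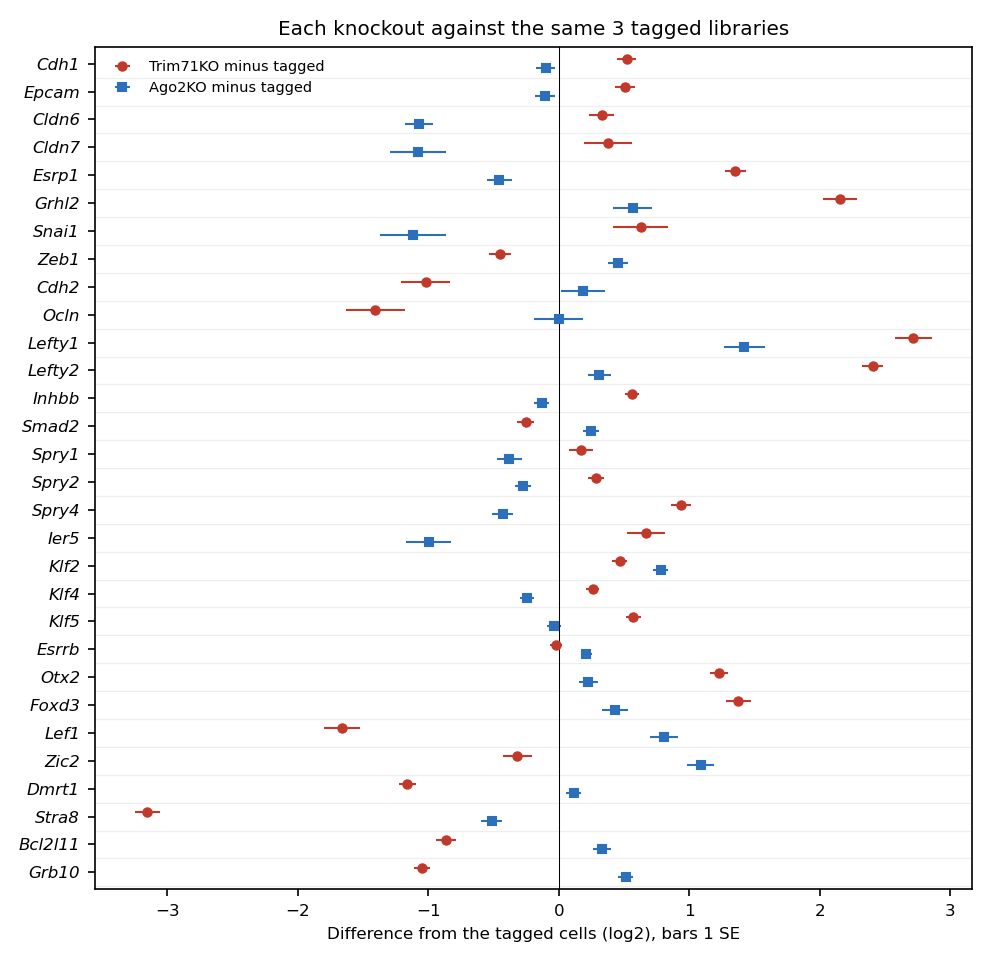
Differences from the tagged cells (log2) for Trim71KO (red circles) and Ago2KO (blue squares), with bars of 1 SE from the edgeR fit. Both use the same 3 tagged libraries. Cldn6 and Spry4 lay on opposite sides of the tagged level, Lefty2 departed mainly in Trim71KO (2.4), and Klf2 was above it in both knockouts.

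Germline and meiosis genes leaned to Ago2KO. Of 32 listed genes 29 were tested, 13 were lower in Trim71KO, 3 were higher and 13 were not called, with a median of -0.35. Dmrt1, a transcription factor of germ cells, stood at 28.8, 30.6 and 27.8 CPM in Trim71KO, 68.5, 69.1 and 73.1 CPM in Ago2KO and 61.6, 66.6 and 66.7 CPM in tagged cells, a direct difference of -1.27 (SE 0.063, edgeR adjusted p 1.27e-13). The Piwi gene Piwil4 (-1.66, SE 0.19, edgeR adjusted p 2.02e-07), the translational repressor Nanos1 (-1.27, SE 0.12, edgeR adjusted p 1.83e-08) and the meiotic gene Meiob (-2.4, SE 0.42, edgeR adjusted p 8.28e-05) were lower too, and Stra8, given above, is a member. Summed over the list, levels were 415 to 435 CPM in Trim71KO, 555 to 606 CPM in Ago2KO and 650 to 662 CPM in tagged cells, so every Trim71KO library lay below every Ago2KO library and these below the tagged ones. These sums include Stra8 (means of 10.7 CPM in Trim71KO and 66.7 CPM in Ago2KO) and Dmrt1 (29.1 and 70.2 CPM). Sums without them were not taken. Prdm1, a specifier of primordial germ cells, went against the list at 9.92, 7.7 and 9.7 CPM against 3.87, 3.73 and 4.12 CPM, a difference of 1.22 (SE 0.16, edgeR adjusted p 2.03e-06), and Sycp2 was higher as well (0.91). In bulk RNA, fewer cells of a type and less RNA per cell cannot be told apart, which holds here and for the lineage markers that follow.

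Markers of other lineages that a stem cell culture can hold were counted next. Of 23 primitive endoderm genes 21 were tested, 5 were higher in Trim71KO and 6 were lower, and their defining transcription factors Gata6, Sox17 and Gata4 stood at 0.717 ± 0.31, 0.253 ± 0.158 and 3.49 ± 0.675 CPM in Trim71KO and 1.46 ± 0.238, 0.679 ± 0.353 and 4.46 ± 0.372 CPM in Ago2KO (SD, n = 3). Sox17 was called lower as well, but not in the fit of all 24 libraries (adjusted p 0.0672) nor without Trim71KO replicate 2 (0.144), Trim71KO replicate 3 (0.0861), Ago2KO replicate 1 (0.0584) or Ago2KO replicate 3 (0.245). Gata6 was lower in Trim71KO at -1.02 (SE 0.30, edgeR adjusted p 0.00979), a call lost without Trim71KO replicate 1 (adjusted p 0.0736), and was below the tagged level of 4.8 ± 0.695 CPM in both knockouts (-2.74 in Trim71KO and -1.72 in Ago2KO). The basement membrane genes Col4a1 (0.53, SE 0.084, edgeR adjusted p 2.37e-05) and Lama1 (0.48, SE 0.092, edgeR adjusted p 2.32e-04) were higher in Trim71KO and Lamb1 was lower (-0.79, SE 0.069, edgeR adjusted p 2.60e-09). Cubn was higher too (1.31, SE 0.32, edgeR adjusted p 0.002555). Srgn, below 1 CPM, was higher at 1.865 (SE 0.59, edgeR adjusted p 0.01615), a call lost without Trim71KO replicate 3 (adjusted p 0.0546) or Ago2KO replicate 3 (0.0859). Both lay below the tagged level in both knockouts (Cubn -1.23 in Trim71KO and -2.54 in Ago2KO, Srgn -1.19 in Trim71KO and -3.06 in Ago2KO). Of 14 mesoderm markers 7 were tested, all at 14.8 CPM or below in each of the 6 libraries, with Eomes higher (0.34) and Gsc and Kdr lower (-2.0 and -1.49), and Kdr lost its call without Trim71KO replicate 2 (adjusted p 0.0724) or without Ago2KO replicate 1 (0.142). Of 13 neuroectoderm markers 5 were tested, and Sox1 was lower in Trim71KO at 7.0, 9.58 and 8.99 CPM against 16.9, 17.2 and 17.9 CPM, a difference of -1.03 (SE 0.10, edgeR adjusted p 3.19e-08). The other call in that list, Nes, was lost in 6 alternatives. Of 11 trophoblast markers 6 were tested, with Plet1 and Krt8 higher and Tfap2c, Ascl2 and Esx1 lower. Tfap2c, which encodes AP-2 gamma and is also made in mES cells, stood at 62.3, 62.1 and 67.3 CPM against 121, 128 and 139 CPM, a difference of -1.02 (SE 0.063, edgeR adjusted p 7.32e-12). The trophoblast-defining genes Cdx2 and Elf5 were not among the genes tested. Of 18 markers of the 2-cell-like state 4 were tested, none above 1 CPM, and their 2 calls, Zscan4c and Zscan4f, were lost without Trim71KO replicate 2, without Trim71KO replicate 3 or without Ago2KO replicate 2. Of 11 markers of fibroblast feeders 4 were tested, with Thy1 higher (0.74), Pdgfrb lower (-0.68) and Col1a1 at 4.27 ± 0.889 CPM against 4.2 ± 0.618 CPM (SD, n = 3). Summed feeder levels were 1003 to 1291 CPM in Trim71KO and 968 to 1054 CPM in Ago2KO, mostly from Fn1 (0.16, edgeR adjusted p 0.217), and the part of these markers in other differences was not tested. All 8 Hox genes tested were at low levels and 4 were lower in Trim71KO, with a median of -0.92. Hoxc13 stood at 2.02, 2.4 and 2.69 CPM against 4.64, 4.02 and 4.49 CPM, and summed levels of the 8 were 8.44 to 10.7 CPM in Trim71KO, 14.6 to 18.4 CPM in Ago2KO and 18.1 to 18.9 CPM in tagged cells.

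Cell cycle genes were called in both directions, with 7 of 22 higher in Trim71KO, 6 lower and 9 not called. Rb1, the retinoblastoma gene, stood at 29.1, 24.7 and 27.1 CPM in Trim71KO, 39, 43.8 and 43.6 CPM in Ago2KO and 27.7, 29.7 and 29.7 CPM in tagged cells, a direct difference of -0.64 (SE 0.074, edgeR adjusted p 2.23e-07). Its relatives Rbl1 and Rbl2, given above, were higher in Trim71KO. E2f1 (-0.50, SE 0.075, edgeR adjusted p 9.77e-06), a transcription factor these proteins hold back, and Ccne1 (-0.41, SE 0.066, edgeR adjusted p 2.49e-05), which encodes cyclin E1, were lower. Cdkn2a was higher at 4.72, 5.53 and 3.78 CPM against 1.84, 1.89 and 1.83 CPM, a difference of 1.33 (SE 0.20, edgeR adjusted p 8.91e-06), and Lats1, a Hippo pathway kinase, at 0.59 (SE 0.11, edgeR adjusted p 1.01e-04). Of 23 genes of the p53 response 3 were higher, 7 were lower and 13 were not called. Btg2, an antiproliferative factor, stood at 64.9, 59.9 and 71.2 CPM against 41.3, 35 and 33.1 CPM with 54.2, 49 and 49.4 CPM in tagged cells, a difference of 0.84 (SE 0.081, edgeR adjusted p 1.33e-08). Ccng1 was lower at -0.42 (SE 0.053, edgeR adjusted p 8.18e-07), not called in Trim71KO against tagged cells (-0.10, edgeR adjusted p 0.135) and called higher in Ago2KO (0.32, 1.90e-04). In the fit of all 24 libraries 6 members of the p53 list were called instead of 10. Among 15 Bcl2 family genes 5 were higher and 2 were lower. Bcl2l11, which encodes the cell death activator BIM, stood at 22.8, 20 and 19.6 CPM in Trim71KO, 47.2, 46.3 and 49.7 CPM in Ago2KO and 41, 37 and 35.5 CPM in tagged cells, a direct difference of -1.2 (SE 0.074, edgeR adjusted p 7.02e-12). Bid (0.48, SE 0.074, edgeR adjusted p 1.62e-05) and Bmf (0.44, SE 0.064, edgeR adjusted p 6.20e-06), which also promote cell death, were higher in Trim71KO. So were Bok (0.32, edgeR adjusted p 0.0100), Bcl2l1 (0.22, 0.0291) and Bcl2l2 (0.18, 0.0158), whose calls were each lost in some alternative fit. The symbol Bcl2l2 is borne by 2 rows, of which the one with more counts was used. Without Trim71KO replicate 1 this list held 4 calls instead of 7, and Bcl2 itself, below 1 CPM in every library, was among those lost (adjusted p 0.0708).

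DNA methylation genes, 14 tested, held 5 that were higher in Trim71KO and 3 that were lower. The de novo methyltransferase genes differed in opposite directions. Dnmt3b stood at 127, 123 and 132 CPM against 95.6, 93.5 and 91.4 CPM, a difference of 0.45 (SE 0.056, edgeR adjusted p 8.75e-07), and Dnmt3a stood at 93.9, 97 and 93 CPM against 148, 143 and 150 CPM, a difference of -0.64 (SE 0.052, edgeR adjusted p 9.16e-10). Their cofactor Dnmt3l was higher at 0.49 (SE 0.049, edgeR adjusted p 2.10e-08). Of 28 imprinted genes tested 8 were higher, 6 were lower and 14 were not called. Grb10, an adaptor that restrains growth factor signalling, stood at 192, 185 and 211 CPM in Trim71KO, 565, 567 and 605 CPM in Ago2KO and 396, 394 and 427 CPM in tagged cells, a direct difference of -1.56 (SE 0.061, edgeR adjusted p 1.43e-15). Mest stood at 67.5, 54.7 and 62.1 CPM against 32.4, 33.8 and 30 CPM, a difference of 0.94 (SE 0.073, edgeR adjusted p 3.92e-10). In the Dlk1 to Dio3 region the maternally expressed RNAs Meg3 (0.47, SE 0.054, edgeR adjusted p 2.19e-07) and Mirg (0.71, SE 0.12, edgeR adjusted p 4.11e-05) were higher and the paternally expressed Dlk1 was lower (-1.88, SE 0.29, edgeR adjusted p 1.49e-05), with Dlk1 at 0.857 ± 0.234 CPM against 3.18 ± 0.432 CPM (SD, n = 3). Of 20 glycolysis genes 7 were higher and 5 were lower. The glucose transporter gene Slc2a1 stood at 795, 814 and 872 CPM against 615, 570 and 577 CPM, a difference of 0.49 (SE 0.057, edgeR adjusted p 2.56e-07), not called in Trim71KO against tagged cells (-0.0030, edgeR adjusted p 0.976) and called lower in Ago2KO (-0.50, 1.39e-06). Hk2, which encodes hexokinase 2, was lower at -0.73 (SE 0.076, edgeR adjusted p 4.76e-08), not called in Ago2KO against tagged cells (-0.030, edgeR adjusted p 0.864).

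Of 14 genes of the Hip1 family and endocytosis 4 were higher, 4 were lower and 6 were not called, and 5 were called without Trim71KO replicate 1. Cltb, which encodes clathrin light chain B, stood out at 130, 148 and 130 CPM in Trim71KO, 50.8, 48.9 and 47.7 CPM in Ago2KO and 46.6, 51.5 and 45.7 CPM in tagged cells, a direct difference of 1.46 (SE 0.071, edgeR adjusted p 1.14e-13). Hip1, an endocytic adaptor, was lower at -0.53 (SE 0.10, edgeR adjusted p 1.66e-04). Collagen and laminin genes numbered 37 tested, of which 8 were higher in Trim71KO and 11 were lower, with a median of -0.25. Lama3 (-1.56, SE 0.19, edgeR adjusted p 4.34e-07) and Col13a1 (-1.37, SE 0.20, edgeR adjusted p 6.39e-06) were among the lower ones and Col4a1 and Lama5 (0.41) among the higher. Over all genes tested 17.2% were called higher and 17.0% lower, and the higher members of the zinc finger and ribosomal lists lay near the first share. Of 59 zinc finger genes numbered Zfp900 to Zfp999, 10 were higher and 6 were lower and 43 were not called. Of 90 cytosolic ribosomal protein genes 16 were higher, 2 were lower and 72 were not called. That count depended on single libraries, with 36 called without Trim71KO replicate 3, 11 without Trim71KO replicate 1, 9 without Trim71KO replicate 2 7 without Ago2KO replicate 2 and 10 in the fit of all 24 libraries. Rpl39l, a paralogue of Rpl39, was the exception in size at 46.8, 44.1 and 42.2 CPM against 83.4, 82.6 and 80.6 CPM, a difference of -0.89 (SE 0.061, edgeR adjusted p 4.43e-11). Of 13 mitochondrially encoded mRNAs 3 were higher and 0 were lower, with 7 called without Trim71KO replicate 2 and 6 without Ago2KO replicate 1. COX1, a subunit of cytochrome oxidase, was higher in Trim71KO at 0.52 (SE 0.073, edgeR adjusted p 4.73e-06). Of 48 replication-dependent histone genes 2 were higher and 4 were lower, and 3 were called without Trim71KO replicate 2 or without Ago2KO replicate 3.

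**Figure D4:**
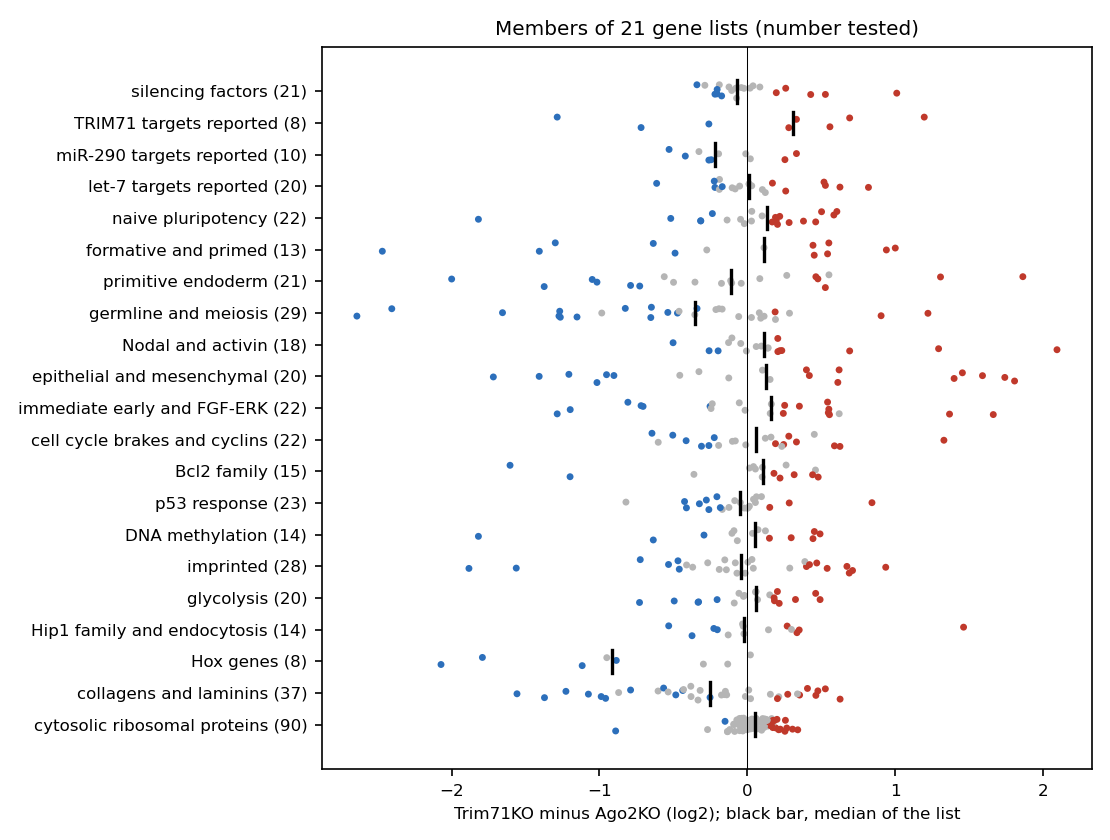
Trim71KO minus Ago2KO (log2) for the tested members of 21 gene lists, with the number tested in parentheses. Points are genes, red where called higher in Trim71KO, blue where called higher in Ago2KO and grey where not called, and the black bar is the list's median. Of the lists plotted, medians lay furthest below 0 for the Hox genes (-0.92) and the germline genes (-0.35), and most lists held calls in both directions. The 9 lists not plotted include the 2-cell-like (-1.25), mesoderm (-0.82) and neuroectoderm (-0.37) markers, with 4, 7 and 5 genes tested.

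Contrasts of libraries other than the 6 compared gave further readouts of the called genes. In experiment 1, which has Trim71KO and tagged input libraries but no Ago2KO, 39.8% of 18350 genes were called for Trim71KO against tagged cells, 20.1% higher and 19.7% lower. Of the genes higher in Trim71KO here, 3274 were tested there and 1505 (46.0%) were called higher and 343 (10.5%) lower. Of the genes higher in Ago2KO, 3122 were tested there and 265 (8.49%) were called higher and 1117 (35.8%) lower. Over all genes tested in both, the shares were 20.3% and 19.7%. Of the 24 genes named by size, the 12 higher in Trim71KO were all above 0 in experiment 1 and 11 were called, Fgf10 being the exception (0.26, edgeR adjusted p 0.310). Of the 12 lower ones 8 were called lower there, with Stra8 at -2.79 (3.24e-10) and Lef1 at -2.29 (6.43e-05). Car12 (-0.36, edgeR adjusted p 0.307), Ttn (-0.38, 0.292), Rims1 (0.10, 0.768) and Vldlr (0.52, 0.0906) were not called. Of genes described above, Myc, Lin28a, Dusp6, Spry2, Tfap2c, Dnmt3l, Hoxc13 and Vldlr had all Trim71KO libraries on the other side of the tagged ones in experiment 1, with values of -0.33 for Myc and -0.66 for Dusp6.

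Association with tagged Tnrc6a was taken from the bead capture of tagged against untagged cells, each relative to its input, and this contrast used no knockout library. The fits behind it held all libraries of each experiment, so the filter and the estimate of spread used the knockout libraries too. In experiment 1, 5276 of 18772 genes (28.1%) were called higher in association in edgeR's quasi-likelihood test. Among the tested genes of the direct comparison this share was 28.0%, among those higher in Trim71KO it was 28.3% (930 of 3282), and among those higher in Ago2KO it was 41.7% (1317 of 3157). In experiment 2 the background was 18.9% of 19778 genes, and the shares of those higher in Trim71KO and in Ago2KO were 20.2% (670 of 3318) and 31.5% (1027 of 3265). Genes at least 2-fold higher in Ago2KO did not show this excess, with 28.2% (135 of 479) in experiment 1 and 15.3% (89 of 583) in experiment 2. For those at least 2-fold higher in Trim71KO the shares were 24% (69 of 288) and 13.7% (44 of 321). Median association was -0.11 on the log2 scale over all genes of experiment 1, -0.18 among those higher in Trim71KO and 0.27 among those higher in Ago2KO. In the 2-fold sets it was 0.029 for Trim71KO and 0.30 for Ago2KO. Levels differed between these sets as well, with medians of 3.78 log2 CPM over all genes tested, 5.19 for those higher in Trim71KO and 4.21 for those higher in Ago2KO. In the 2-fold sets the median levels were 1.44 for Trim71KO and 0.69 for Ago2KO. The part of the level in these shares was not tested.

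For the 15894 tested genes with a chromosome in the RefSeq table, the median difference per autosome lay between -0.053 on chromosome 12 and 0.041 on chromosome 17, and was -0.045 on the X chromosome. Between 33.3% and 41.2% of the genes of each autosome were called. On the X chromosome 36.4% were called. The smallest sets lay furthest from 0, with a median of -0.21 for 9 genes of the Y chromosome (55.6% called) and 0.21 for the 13 mitochondrial genes (23.1% called). A list of 4 Y-linked genes (Eif2s3y, Ddx3y, Kdm5d and Uty) had a median of 0.22 instead, with 2 called higher, 1 lower and 1 not called. Their summed levels were 377, 390 and 426 CPM in Trim71KO and 344, 364 and 373 CPM in Ago2KO.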

How the data were processed

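Per the submitters' processing notes, bcl2fastq 2.20 and STAR 2.7.3a were used with the mouse builds GRCm38 and mm10. The counting program, gene annotation and strand setting are not given in the sources used here, so overlapping, antisense and near-identical genes are uncertain. The authors deposited raw read counts per gene and, beside them, RPKM values. RPKM served only to compare genes with each other within libraries. Libraries were grouped by their labels.

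Counts of the 12 input libraries of experiment 2 were fitted with edgeR 4.0.16 in R 4.3.3 (TMM, filterByExpr, quasi-likelihood, a mean for each of 4 groups), with Benjamini-Hochberg adjustment over all genes tested and calls at an adjusted p under 0.05. CPM are TMM-scaled. Bead-bound libraries stayed out of this fit. The fit was tested on simulated data. Named genes are Trim71, Ago2, Tnrc6a, 12 genes each way by size, and list members with up to 6 calls each way or that define the list. A few further members are given by value. The members and lists were chosen with earlier results of these data known. Correlations of deviations between equal replicate numbers were 0.22, 0.031 and 0.20. The main fit did not take the numbers as pairs, and a fit with the number as a block is given below. Replicates differed by more than sampling noise (chi-square per gene 3.02 to 9.00). Seed matches were not searched because no 3' UTR sequence was at hand. Alternatives were DESeq2 1.42.0, other scalings and filters, other sets of libraries, a replicate block and leaving out each library.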

Additional observations from a re-analysis of the deposited data

Results flagged for a closer look

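The 236 named genes were also looked up in Trim71KO minus tagged cells in both experiments. In 23 of them all 3 Trim71KO libraries lay on opposite sides of all 3 tagged libraries in the experiments, while 117 separated in the same direction in both. Whether the experiments differ was not tested at these genes, and they were searched among many. Log2 differences were, for Vldlr, -1.39 in experiment 2 and 0.52 in experiment 1. For Myc they were 1.01 in experiment 2 and -0.33 in experiment 1, for Mycn 0.41 in experiment 2 and -0.15 in experiment 1, for Lin28a 0.36 in experiment 2 and -0.47 in experiment 1 and for Ccnd1 0.54 in experiment 2 and -0.27 in experiment 1. Among FGF-ERK genes, Dusp6 gave 0.56 in experiment 2 and -0.66 in experiment 1 and Spry2 0.29 in experiment 2 and -0.35 in experiment 1. Among p53 and Bcl2 family genes, Gdf15 gave -0.32 in experiment 2 and 0.98 in experiment 1, Plk2 -0.47 in experiment 2 and 0.36 in experiment 1 and Bcl2l1 0.18 in experiment 2 and -0.30 in experiment 1. Tfap2c gave -0.45 in experiment 2 and 0.23 in experiment 1, Dnmt3l 0.55 in experiment 2 and -0.18 in experiment 1, Igf2 0.26 in experiment 2 and -1.14 in experiment 1 and Hoxc13 -0.95 in experiment 2 and 1.25 in experiment 1. The metabolic genes Eno2 and Pdk1 gave -0.81 in experiment 2 and 0.32 in experiment 1, and 0.45 in experiment 2 and -0.16 in experiment 1. The endocytosis genes Dnm1 and Picalm gave -0.61 in experiment 2 and 0.47 in experiment 1, and 0.32 in experiment 2 and -0.10 in experiment 1. The histone gene H1f2 gave -0.80 in experiment 2 and 0.94 in experiment 1. Of the zinc finger genes, Zfp990 gave 0.65 in experiment 2 and -1.45 in experiment 1, Zfp979 0.39 in experiment 2 and -1.69 in experiment 1, Zfp980 0.58 in experiment 2 and -0.84 in experiment 1 and Zfp945 0.50 in experiment 2 and -0.44 in experiment 1.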

How the results depend on the processing

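Across the 14 alternatives the number of genes called stayed between 5428 and 6953 (main value 6583) and that with at least a 2-fold difference between 716 and 956 (main value 904). Leaving out single libraries gave 5428 to 6327 calls and 843 to 917 with at least 2-fold. With the replicate number as a block 6953 genes were called and 914 with at least 2-fold. Whether the numbers pair the samples was not tested. Correlations between equal numbers were 0.22, 0.031 and 0.20, and those between unequal numbers ran from -0.25 to 0.033. Ago2KO replicate 2 correlated slightly better with Trim71KO replicate 1 (0.033), while the other 5 libraries correlated best with their own number. The main fit holds no term for an effect shared by equal numbers. Scaling by library totals alone moved the share of calls higher in Trim71KO from 50.4% to 40.5% and the median of all genes to -0.047, and the fit of all 24 libraries gave 46.6%. Pou5f1, Epcam and members given as not called outside that rule were not run under the alternatives. Of 236 named genes 173 kept direction and side of the threshold in every alternative, 34 lost their call in a processing alternative and 56 without some library. The direction turned for Tnrc6a alone, which was never called: 0.0039 without Trim71KO replicate 1 and 0.00017 without Ago2KO replicate 2, in a range down to -0.037 over the single libraries left out. The cause was not tested. Of 30 lists 20 kept a count of calls within 1.5 times and 25 a median of the same sign in every alternative. Precision was limited by 3 dishes per group. The planned search for seed matches was not run.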
